A study of Mus musculus with 12 samples.

Results

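The 37 genes described here are 34 genes listed as mature astrocyte genes and 3 listed as radial glia genes, *Nes*, *Vim* and *Fabp7*. They were taken by gene symbol from the 24480 genes of the 2 count tables, and all 37 were found. Several of the 34 are also expressed by radial glia, progenitors or neurons, as given below, so the list is not particular to mature astrocytes. The RNA came from the dorsolateral geniculate nucleus (dLGN), the relay nucleus of the visual thalamus, of mice at postnatal day 0 (P0), and was measured by RNA-seq in 12 libraries that form 4 groups of 3. *Sox2* mutants were Sox2flox/flox;Ror-alphaCre and *Nr2f1* mutants were Nr2f1 flox/flox;Ror-alphaCre. In both, Cre is expressed from the *Rora* gene and deletes the targeted gene in postmitotic cells of the sensory thalamus. Controls of the *Sox2* line were littermates that were Sox2flox/flox or Sox2flox/+ and had no Cre. According to the methods of the study, controls of the *Nr2f1* line were likewise flox/flox or flox/+ animals with no Cre, although their labels name the Cre allele beside the words no Cre. No agent was given to any group. Each library was made from a pool of 3 animals, so that the error terms below measure the spread between pools. Each line had its own controls, and the question asked of each gene was whether its mRNA level in the dLGN changed when *Sox2* or *Nr2f1* was deleted.

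Radial glia are the progenitors that line the ventricles of the embryonic brain, and around birth many of them turn into astrocytes. On this path, the intermediate filament proteins nestin and vimentin and the fatty acid-binding protein FABP7 give way to proteins that serve mature astrocytes, such as glutamate transporters, gap junction subunits, the water channel of the end-feet on blood vessels, and the filament protein GFAP. Astrocytes of the thalamus take up the transmitter that retinal and cortical axons release, pass glutamine back to neurons, and secrete proteins that act on synapses.

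The libraries held between 39293465 and 50095344 counts. The targeted genes followed the labels. *Sox2* lay between 361 and 382 CPM (counts scaled to an equal library total) in the controls of its line and between 116 and 152 CPM in the mutants. *Nr2f1* lay between 311 and 380 CPM in the controls of its line and between 101 and 151 CPM in the mutants. In *Nr2f1* mutants *Sox2* was also lower, with 212 to 279 CPM against 343 to 374 CPM (log2 fold change −0.55 ± 0.09, FDR 0.0063). The FDR is the Benjamini-Hochberg adjusted p-value of the quasi-likelihood test of edgeR, a gene was called when it lay below 0.01, and the error of a log2 fold change is the standard error (SE) of that fit. The thalamic markers *Tcf7l2*, *Rora*, *Lef1* and *Slc17a6* were detected in every library. Some libraries stood apart in their meningeal RNA. The summed level of 9 fibroblast markers was 2517 CPM in CTRL_3 of the *Sox2* line against 1263 and 1313 CPM in the other controls, and 4224 CPM in MUT_3 against 1909 and 2410 CPM in the other mutants. It was 2654 and 3222 CPM in MUT_A and MUT_C of the *Nr2f1* line against 932 to 1447 CPM in its other 4 libraries. The sex of the pooled animals also differed. *Xist*, which is expressed in females, had 0.189 and 0.463 CPM in CTRL_2 and MUT_1 of the *Sox2* line and 0.283 CPM in CTRL_E of the *Nr2f1* line, against 293 to 1150 CPM elsewhere, and 4 Y-linked genes were at 0 in MUT_A of the *Nr2f1* line. All *Nr2f1* mutants lay above their controls for *Xist*, and the part of sex in the differences was not tested. The libraries are named here by the columns of the count tables.

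To compare levels between genes, CPM were divided by transcript length in kilobases (kb). In controls of the *Sox2* line, *Fabp7* had the highest level of the 37, with a mean of 913 CPM per kb (812 to 1077 in the 3 libraries), followed by *Apoe* with 475 (447 to 523) and *Sparcl1* with 340 (315 to 376). The ranges of these 3 genes did not overlap. *Atp1b2* (171 to 186 CPM per kb), *Cst3* (166 to 190) and *Vim* (138 to 182) came next, and neighbours in this part of the order overlapped. The glutamate transporter gene *Slc1a3* had 64.2 CPM per kb, *Aqp4* 57.0, *Gfap* 27.4, *Nes* 17.4 and *Slc1a2* 14.8. At the low end, *Ntsr2*, *Bmpr1b*, *Gjb6*, *S100b* and *Cldn10* had means between 0.643 and 3.75 CPM per kb. Their counts set a limit to precision, since *Cldn10* had between 26 and 105 counts per library and *Fabp7* between 25208 and 55439.

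In *Sox2* mutants, 22 of the 37 genes were upregulated and 0 were downregulated at FDR below 0.01. At an unadjusted p below 0.05, edgeR gave 35 higher genes and 1 lower gene, *Id4*. Such p-values were frequent, and 0.029 ranked 4522 of all genes by edgeR in this line. DESeq2 gave 0 lower at FDR below 0.01. Of all 15602 genes tested in this line, 3.90% were called higher and 4.19% lower. At FDR below 0.05, 32 of the 37 were higher (10.4% of all genes). All 3 mutant libraries lay above all 3 controls for 32 of the 37 genes, which held for 19.0% of all genes. The median log2 fold change was 0.58 over the 37 genes and 0.0005 over all genes tested. In *Nr2f1* mutants, 1 of the 37 genes was upregulated by edgeR, *Aqp4*, and 0 were downregulated, against 1.22% higher and 1.32% lower of the 15600 genes tested. DESeq2 gave 7 higher and 1 lower at FDR below 0.01, but its share over all genes was not computed, so these counts cannot be set against the edgeR shares. By edgeR, 15 of the 37 were higher and 1 lower at an unadjusted p below 0.05, where 0.042 ranked 3534 of all genes. At FDR below 0.05, 6 were higher (3.65% of all genes). The 3 mutant libraries lay above the 3 controls for 12 of the 37 genes, against 14.4% of all genes, and the median log2 fold change was 0.18 against 0.01 over all genes. RNA from whole dissected tissue cannot tell a change in the number of astroglial cells from a change in RNA per cell. The count in *Sox2* mutants rested on single libraries, since 10 of the 22 were called without CTRL_1, without CTRL_2 or without MUT_4, 15 of them without MUT_3, and all 22 without MUT_1 or without CTRL_3. Without CTRL_3 a further 8 were called, among them *Nes*, *Vim*, *Slc1a3* and *S100b*. Without CTRL_3 and MUT_3 together, 32 of the 37 genes were higher and *Id4* was lower. The call of *Aqp4* in *Nr2f1* mutants was lost without any one library of its line other than MUT_B.

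**Figure D1:**
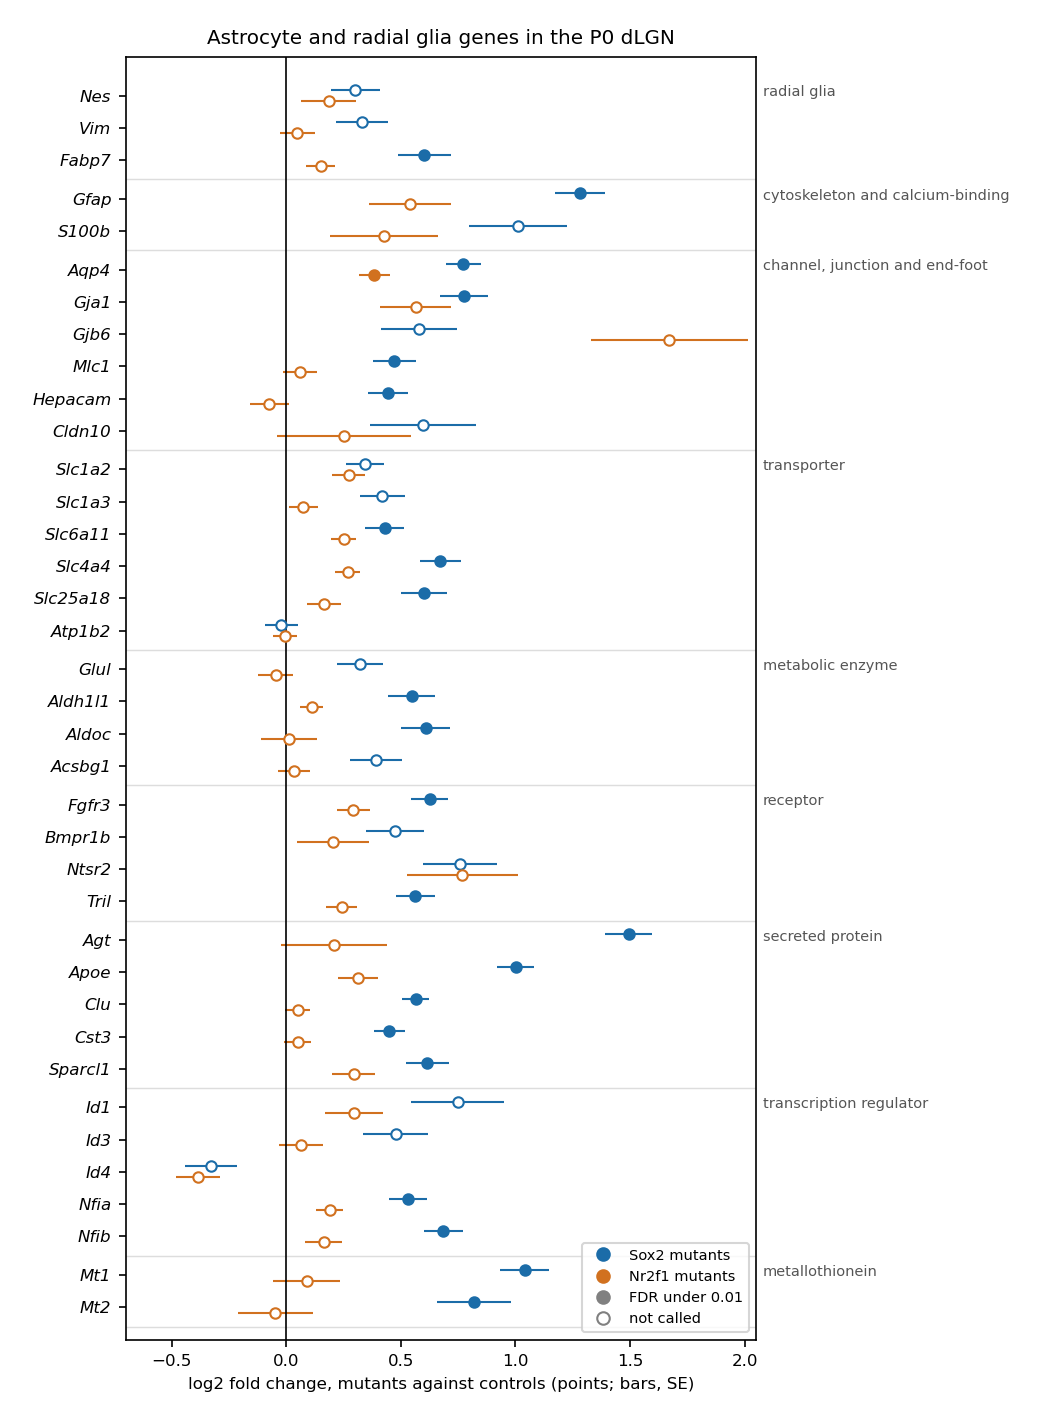
Log2 fold change of the 37 genes, grouped by role, in *Sox2* mutants (blue) and *Nr2f1* mutants (orange) against the controls of the same line, with bars for the SE (3 libraries in each group) and filled points for FDR below 0.01. Filled blue points run from *Slc6a11* at 0.43 to *Agt* at 1.49, *Id4* lies below 0 in both lines, and *Aqp4* at 0.38 is the filled orange point.

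Of the 3 radial glia genes, *Fabp7* rose in *Sox2* mutants. *Fabp7*, which encodes the fatty acid-binding protein of radial glia, had 653, 684 and 866 CPM in CTRL_1, CTRL_2 and CTRL_3 and 1020, 1096 and 1227 CPM in MUT_1, MUT_3 and MUT_4 (log2 fold change 0.60 ± 0.11, FDR 0.0064). The groups did not overlap, and CTRL_3 was the control nearest to the mutants. *Nes*, which encodes nestin, had 95.4, 99.9 and 125 CPM in the controls and 119, 136 and 140 CPM in the mutants (0.30 ± 0.11, FDR 0.076). *Vim*, which encodes vimentin, had 304, 314 and 400 CPM in the controls and 379, 456 and 445 CPM in the mutants (0.33 ± 0.11, FDR 0.070). For both, CTRL_3 lay above MUT_1, so that the groups overlapped, and without CTRL_3 both passed the threshold. Beside its meningeal RNA, CTRL_3 had the highest summed endothelial markers (558 against 364 and 385 CPM) and pericyte markers (467 against 293 and 320 CPM) of the controls. The part of these other cells in the levels of *Nes* and *Vim* was not tested.

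In *Nr2f1* mutants, none of the 3 radial glia genes was called by edgeR (unadjusted p below 0.05 for *Fabp7* alone). *Fabp7* had 644, 623 and 581 CPM in CTRL_B, CTRL_D and CTRL_E and 633, 718 and 699 CPM in MUT_A, MUT_B and MUT_C (0.15 ± 0.06, FDR 0.18). *Nes* had 105, 111 and 77.4 CPM against 111, 101 and 121 CPM (0.18 ± 0.12, FDR 0.39). *Vim* had 263, 276 and 243 CPM against 255, 251 and 303 CPM (0.05 ± 0.08, FDR 0.76). The groups overlapped for all 3.

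Both genes of the cytoskeletal and calcium-binding proteins lay higher in every *Sox2* mutant library than in any control, and *Gfap* was called. *Gfap*, on chromosome 11 from 102887336 to 102897200 of GRCm38 (minus strand), encodes the intermediate filament protein that accumulates in mature and in reactive astrocytes. It had 73.1, 77.0 and 67.1 CPM in the *Sox2* line controls and 148, 203 and 178 CPM in the mutants, a ratio of means of 2.43 (log2 fold change 1.28 ± 0.11, FDR 0.00011). CTRL_3, which held more glial and meningeal RNA than the other controls, had the lowest *Gfap* level of the 3. In the *Nr2f1* line *Gfap* had 36.0, 36.0 and 49.2 CPM in the controls and 47.4, 52.2 and 76.6 CPM in the mutants (0.54 ± 0.18, FDR 0.10), and CTRL_E overlapped with the mutants. *S100b*, which encodes a calcium-binding protein, was low in every library. It had 2.04, 1.61 and 2.40 CPM in the *Sox2* line controls and 4.90, 3.41 and 3.87 CPM in the mutants (1.01 ± 0.21, FDR 0.011). Values of the *Nr2f1* line were 1.21, 0.998 and 1.5 CPM against 1.48, 1.84 and 1.66 CPM (0.43 ± 0.23, FDR 0.30).

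Of the 6 genes for channels, junctions and end-feet, 4 rose in *Sox2* mutants and 1 in *Nr2f1* mutants. *Aqp4* encodes the water channel of astrocyte end-feet and was the one of the 37 genes called in both lines. It had 286, 266 and 313 CPM in the *Sox2* line controls and 490, 505 and 483 CPM in the mutants (0.77 ± 0.08, FDR 0.00021). The *Nr2f1* line had 215, 198 and 216 CPM in the controls and 259, 262 and 300 CPM in the mutants (0.38 ± 0.07, FDR 0.0085). *Aqp4* was thus 1.71 times its control mean in *Sox2* mutants and 1.30 times in *Nr2f1* mutants, with no overlap between groups in either line. *Gja1*, which encodes connexin 43, the main gap junction subunit of astrocytes, had 82.3, 75.5 and 95.0 CPM in the *Sox2* line controls and 126, 158 and 149 CPM in the mutants (0.77 ± 0.10, FDR 0.0011). In the *Nr2f1* line *Gja1* had 51.8, 55.4 and 64.3 CPM against 84.3, 64.0 and 106 CPM (0.57 ± 0.16, FDR 0.059). There MUT_B lay within the controls, while MUT_A and MUT_C, the 2 libraries with much meningeal RNA, lay above them.

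*Mlc1* and *Hepacam*, whose products form a complex at astrocyte junctions and end-feet, rose less in *Sox2* mutants. *Mlc1* had 49.2, 58.5 and 57.7 CPM in the controls and 67.8, 81.4 and 79.9 CPM in the mutants (0.47 ± 0.10, FDR 0.0086). *Hepacam* had 97.8, 104 and 115 CPM against 129, 155 and 147 CPM (0.44 ± 0.09, FDR 0.0077). The groups did not overlap in this line. In *Nr2f1* mutants the log2 fold changes were 0.06 ± 0.08 and −0.07 ± 0.09. *Gjb6*, which encodes connexin 30, had few counts and its larger difference in *Nr2f1* mutants. There it had 4.77, 2.47 and 6.5 CPM in MUT_A, MUT_B and MUT_C against 1.02, 1.51 and 1.76 CPM in the controls (1.67 ± 0.34, FDR 0.019). In *Sox2* mutants it had 4.46, 5.84 and 5.62 CPM against 3.73, 3.08 and 3.85 CPM (0.58 ± 0.17, FDR 0.037). *Gjb6* was again highest in MUT_A and MUT_C, and it is also expressed by meningeal cells, whose markers were high in these 2 libraries. Their part in the result was not tested. *Cldn10*, which encodes a claudin, had 1.56, 1.11 and 1.43 CPM in the *Sox2* line controls and 2.14, 1.74 and 2.32 CPM in the mutants (FDR 0.099), and in *Nr2f1* mutants its log2 fold change was 0.25 ± 0.29.

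Of the 6 transporter genes, 3 rose in *Sox2* mutants. *Slc4a4*, which encodes a sodium bicarbonate cotransporter, had 164, 150 and 174 CPM in the controls and 229, 274 and 274 CPM in the mutants (0.67 ± 0.09, FDR 0.0010). *Slc25a18*, a mitochondrial glutamate carrier, had 23.7, 25.8 and 30.5 CPM against 37.8, 41.3 and 42.1 CPM (0.60 ± 0.10, FDR 0.0037). *Slc6a11*, the astrocytic GABA transporter GAT-3, had 306, 314 and 339 CPM against 390, 428 and 473 CPM (0.43 ± 0.08, FDR 0.0075), although its difference was −9e-04 when the libraries were scaled to other astroglial genes. The groups did not overlap for these 3. The 2 glutamate transporters missed the threshold with smaller differences. *Slc1a3*, which encodes GLAST, the transporter that radial glia also carry, had 252, 250 and 299 CPM in the controls and 319, 359 and 395 CPM in the mutants (0.42 ± 0.10, FDR 0.017). *Slc1a2*, which encodes GLT-1, had 177, 178 and 159 CPM against 212, 201 and 240 CPM (0.34 ± 0.08, FDR 0.019). *Atp1b2*, a sodium pump subunit found in astrocytes and also in neurons, had 485 to 528 CPM in the controls and 476 to 530 CPM in the mutants (−0.02 ± 0.07).

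In *Nr2f1* mutants, none of the 6 transporter genes passed FDR below 0.01 in edgeR, and 3 did at FDR below 0.05 and at an unadjusted p below 0.05. *Slc6a11* had 242, 271 and 263 CPM in the controls and 303, 309 and 311 CPM in the mutants (0.25 ± 0.05, FDR 0.022). *Slc4a4* had 135, 135 and 151 CPM against 170, 165 and 173 CPM (0.27 ± 0.06, FDR 0.020). *Slc1a2* had 202, 174 and 167 CPM against 228, 216 and 211 CPM (0.27 ± 0.07, FDR 0.049). The mutants lay above the controls for these 3 genes and for *Slc25a18*. *Slc1a3* had 227, 220 and 210 CPM against 216, 224 and 252 CPM (0.07 ± 0.06), and the groups overlapped.

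All 4 genes of metabolic enzymes were higher in every *Sox2* mutant library than in any control, and 2 were called, although *Glul* turned to −0.11 and *Acsbg1* to −0.033 when scaled to other astroglial genes. *Aldh1l1*, the folate enzyme whose gene is widely used to label astrocytes, had 244, 272 and 317 CPM in the controls and 369, 436 and 410 CPM in the mutants (0.55 ± 0.10, FDR 0.0062). *Aldoc*, a glycolytic aldolase, had 83.1, 102 and 104 CPM against 134, 140 and 167 CPM (0.61 ± 0.11, FDR 0.0044). *Glul*, which encodes glutamine synthetase, had 171, 164 and 184 CPM against 198, 199 and 252 CPM (0.32 ± 0.10, FDR 0.048), with MUT_4 above the other mutants. *Acsbg1*, an acyl-CoA synthetase, had a difference of 0.39 ± 0.11 (FDR 0.038). In *Nr2f1* mutants the 4 log2 fold changes lay between −0.05 and 0.11. There *Aldh1l1* had 204, 225 and 215 CPM in the controls and 226, 234 and 235 CPM in the mutants (0.11 ± 0.05, FDR 0.21), and *Glul* had 206, 225 and 233 CPM against 206, 198 and 239 CPM (−0.05 ± 0.08, FDR 0.76).

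Of the 4 receptor genes, *Fgfr3* and *Tril* rose in *Sox2* mutants. *Fgfr3*, a fibroblast growth factor receptor found in astrocytes and in progenitors, had 96.4, 90 and 103 CPM in the controls and 149, 137 and 161 CPM in the mutants (0.63 ± 0.08, FDR 0.00078). *Tril*, a coreceptor of Toll-like receptors, had 122, 121 and 137 CPM against 168, 206 and 188 CPM (0.56 ± 0.09, FDR 0.0022). *Bmpr1b*, a receptor of bone morphogenetic proteins, and *Ntsr2*, a neurotensin receptor, had differences of 0.47 ± 0.13 (FDR 0.028) and 0.76 ± 0.16 (FDR 0.011). *Ntsr2* had at most 437 counts in a library. In *Nr2f1* mutants *Fgfr3* had 72.1, 76.3 and 80.3 CPM against 90.1, 86.9 and 103 CPM (0.29 ± 0.07, FDR 0.040), and the other 3 log2 fold changes lay between 0.20 and 0.77 with FDR between 0.063 and 0.47.

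All 5 genes of secreted proteins rose in *Sox2* mutants. In *Nr2f1* mutants none was called by edgeR, with unadjusted p-values below 0.05 for *Apoe* and *Sparcl1*, while DESeq2 called *Apoe* (0.30, FDR 0.0061). The largest change among the 37 genes in the *Sox2* line was that of *Agt*, which encodes angiotensinogen, a precursor that astrocytes of the brain stem and diencephalon make. *Agt* lies on chromosome 8 from 124556587 to 124569706 (minus strand). It had 17.5, 15.5 and 15.1 CPM in the controls and 50.1, 39.7 and 45.5 CPM in the mutants, a ratio of means of 2.82 (1.49 ± 0.10, FDR 3.9e-05). Values of the *Nr2f1* line were 10.2, 10.4 and 20.4 CPM in the controls and 16.2, 16.1 and 15.1 CPM in the mutants (0.21 ± 0.23, FDR 0.64). One control, CTRL_E, lay above all 3 mutants there.

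*Apoe*, the lipid carrier that astrocytes secrete, had 630, 642 and 737 CPM in the *Sox2* line controls and 1277, 1375 and 1367 CPM in the mutants, a ratio of means of 2.00 (1.00 ± 0.08, FDR 7.8e-05). In the *Nr2f1* line it had 454, 494 and 578 CPM against 616, 595 and 683 CPM (0.31 ± 0.09, FDR 0.064), and the mutants lay above the controls in both lines. *Clu*, which encodes the chaperone clusterin, had 122, 118 and 119 CPM in the *Sox2* line controls and 172, 175 and 183 CPM in the mutants (0.56 ± 0.06, FDR 0.00030). Its spread between pools was small, with an SD of 2.17 CPM in the controls. *Clu* of the *Nr2f1* line had 104, 102 and 112 CPM against 105, 109 and 115 CPM (0.05 ± 0.06, FDR 0.64). *Cst3*, the protease inhibitor cystatin C, had 143, 151 and 163 CPM in the *Sox2* line controls and 203, 214 and 207 CPM in the mutants (0.45 ± 0.07, FDR 0.0022). *Sparcl1*, which encodes hevin, a protein that promotes synapses of thalamic axons, had 868, 908 and 1037 CPM against 1282, 1535 and 1491 CPM (0.61 ± 0.09, FDR 0.0022). In *Nr2f1* mutants the log2 fold changes of *Cst3* and *Sparcl1* were 0.05 ± 0.06 and 0.29 ± 0.09. *Apoe* and *Cst3* are also expressed strongly by microglia, whose summed markers were 304 to 359 CPM in *Sox2* mutants against 146 to 164 CPM in their controls, and the part of microglia in these differences was not tested.

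The 5 transcription regulators did not move together. *Nfia* and *Nfib*, nuclear factor I genes that drive the onset of astrocyte formation and are also expressed by neurons, rose in *Sox2* mutants. *Nfia* had 69.2, 65.4 and 78.8 CPM in the controls and 96.1, 109 and 103 CPM in the mutants (0.53 ± 0.08, FDR 0.0026). *Nfib* had 88.8, 72.6 and 87.3 CPM against 138, 135 and 127 CPM (0.69 ± 0.09, FDR 0.00068). Neither group overlapped with the other. *Id1*, *Id3* and *Id4* encode inhibitors of basic helix-loop-helix factors and are targets of bone morphogenetic protein signalling. *Id1* and *Id3* had differences of 0.75 ± 0.20 (FDR 0.030) and 0.48 ± 0.14 (FDR 0.043), with 45.4 and 113 CPM in CTRL_3 against 27.2 to 28.5 and 73.9 to 88.5 CPM in the other controls. *Id4* had the lowest log2 fold change of the 37 genes in both lines, and edgeR called it in neither with all libraries. It was called lower without MUT_3 of the *Sox2* line and without MUT_B of the *Nr2f1* line. It had 188, 198 and 170 CPM in the *Sox2* line controls and 130, 176 and 136 CPM in the mutants (−0.33 ± 0.11, FDR 0.067), and MUT_3 overlapped with the controls. In the *Nr2f1* line *Id4* had 176, 186 and 201 CPM against 145, 164 and 123 CPM (−0.39 ± 0.10, FDR 0.042), without overlap. *Id4* is expressed by thalamic neurons as well as by glia, and the cells behind its lower level cannot be told apart here. *Nfia* and *Nfib* had log2 fold changes of 0.19 ± 0.06 and 0.16 ± 0.08 in *Nr2f1* mutants.

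Both metallothionein genes, which encode small proteins that bind zinc and copper, rose in *Sox2* mutants. *Mt2* and *Mt1* are neighbours on chromosome 8, from 94172618 to 94173567 and from 94178883 to 94180327 (both plus strand). *Mt1* had 31.5, 32.9 and 36.1 CPM in the controls and 58.4, 77.1 and 71.1 CPM in the mutants (1.04 ± 0.11, FDR 0.00025). *Mt2* had 21.0, 22.2 and 25.2 CPM against 31.0, 51.1 and 38.3 CPM (0.82 ± 0.16, FDR 0.0078). MUT_3 had the highest level of both, and no mutant overlapped with a control. The 2 genes also varied together between pools of the *Nr2f1* line. *Mt1* had 25.4, 33.2 and 41.7 CPM in CTRL_B, CTRL_D and CTRL_E against 35.1, 34.4 and 37.3 CPM in the mutants (0.09 ± 0.15, FDR 0.76), and *Mt2* had 16.3, 25.7 and 27.4 CPM against 22.5, 21.7 and 23.1 CPM (−0.05 ± 0.16, FDR 0.89). There the controls spanned a wider range than the mutants.

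**Figure D2:**
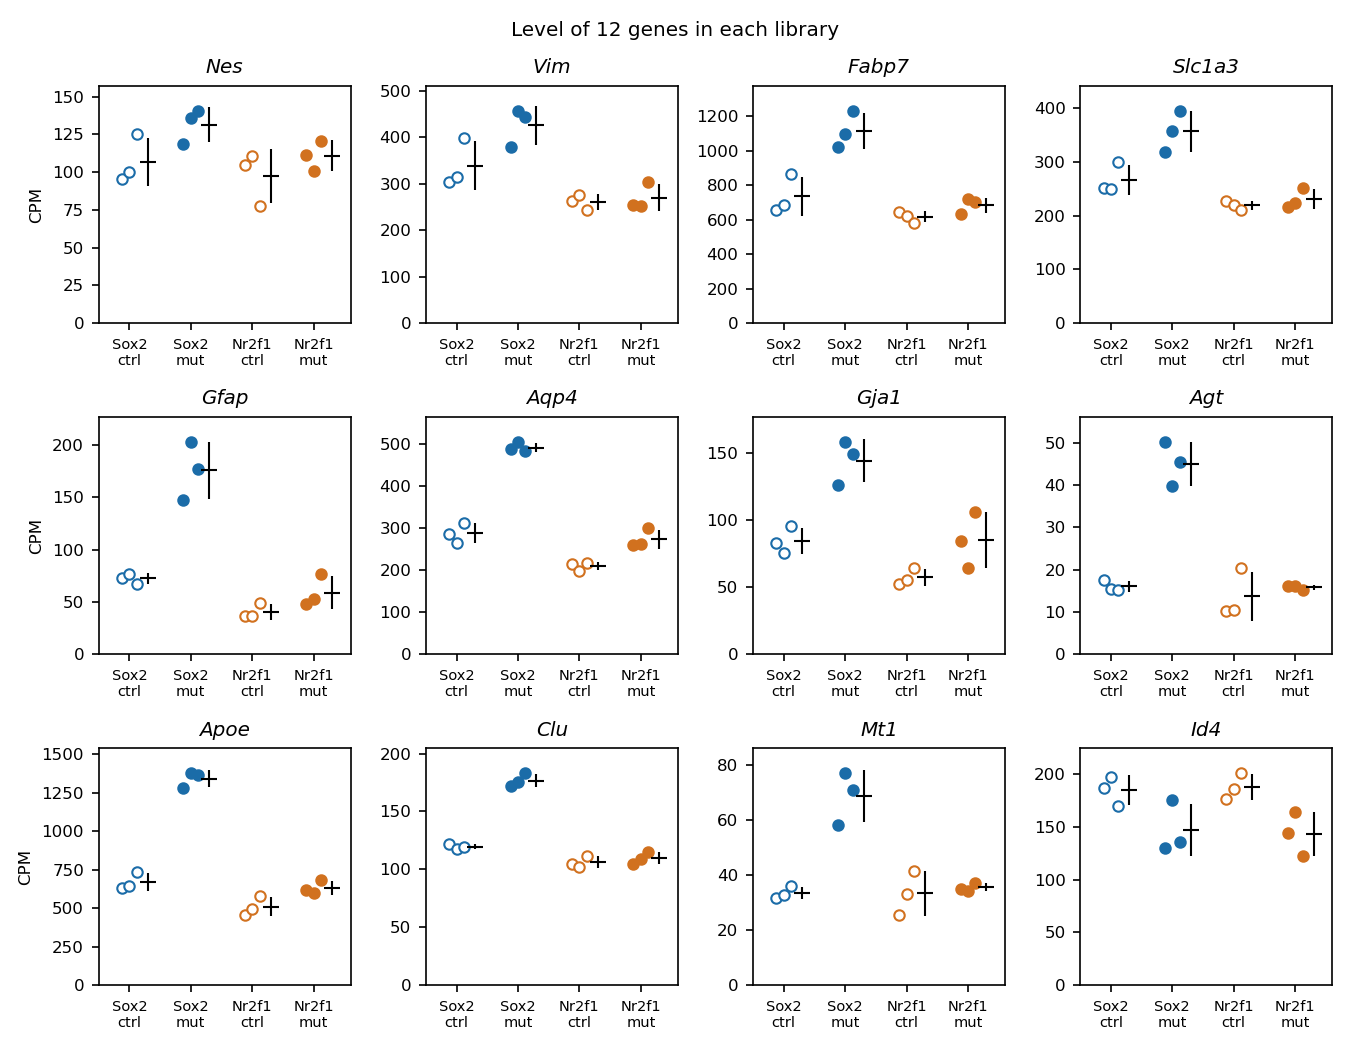
Level in CPM of 12 of the genes in each of the 12 libraries (open points, controls; filled points, mutants; blue, *Sox2* line; orange, *Nr2f1* line), with the mean and SD of each group of 3 as a black mark. The blue filled points of *Agt* (39.7 to 50.1 CPM) and *Gfap* (148 to 203 CPM) lie far above the open ones, those of *Nes* and *Vim* overlap with them, and *Id4* is lower in mutants of both lines on average.

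Upstream sequences are shown for *Agt*, *Gfap* and *Apoe*, which with *Mt1* had the largest log2 fold changes among the genes called in *Sox2* mutants, and for *Mt2*, given for the metallothionein pair. Each is the 250 bases before the RefSeq start site in GRCm38.p6, 5′ to 3′ on the strand of the gene, and 31 of the 37 genes had an entry. The intervals are chr11:102897201-102897450 (minus) for *Gfap*, chr8:124569707-124569956 (minus) for *Agt*, chr7:19699189-19699438 (minus) for *Apoe* (a start site 2122 bases inside the outermost edge of the gene) and chr8:94172368-94172617 (plus) for *Mt2*. Capitals mark matches on either strand to the SOX core (ACAAAG or ACAATG), the nuclear receptor half-site AGGTCA, the metal response core (TGCACNC or TGCGCNC) and the TATA box (TATAAA).
Gfap: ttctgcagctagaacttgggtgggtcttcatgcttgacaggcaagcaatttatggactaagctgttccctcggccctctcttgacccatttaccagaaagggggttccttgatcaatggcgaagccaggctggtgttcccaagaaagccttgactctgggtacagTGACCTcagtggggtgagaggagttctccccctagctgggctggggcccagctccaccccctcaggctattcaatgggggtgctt
Agt: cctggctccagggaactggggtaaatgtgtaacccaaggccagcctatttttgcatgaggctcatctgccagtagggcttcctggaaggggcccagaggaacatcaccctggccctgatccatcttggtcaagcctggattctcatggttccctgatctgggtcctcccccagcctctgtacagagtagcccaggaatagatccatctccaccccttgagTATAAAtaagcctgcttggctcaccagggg
Apoe: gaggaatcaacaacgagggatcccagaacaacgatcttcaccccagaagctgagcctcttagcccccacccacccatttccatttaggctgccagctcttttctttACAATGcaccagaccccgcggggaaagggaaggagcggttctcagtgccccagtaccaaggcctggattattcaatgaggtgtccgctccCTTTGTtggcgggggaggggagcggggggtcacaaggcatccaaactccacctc
Mt2: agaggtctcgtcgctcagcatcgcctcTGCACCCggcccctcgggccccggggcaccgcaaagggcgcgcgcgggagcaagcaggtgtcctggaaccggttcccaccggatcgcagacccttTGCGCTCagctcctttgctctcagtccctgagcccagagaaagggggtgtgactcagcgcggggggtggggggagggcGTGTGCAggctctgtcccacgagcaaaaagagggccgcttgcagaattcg
The *Gfap* sequence held 1 nuclear receptor half-site and no SOX core. The *Agt* sequence held 1 TATA box and none of the other motifs. The *Apoe* sequence held 2 SOX cores, and the *Mt2* sequence held 3 metal response cores. Among all 32851 upstream windows of the same length, 25.2% held a SOX core, 14% a nuclear receptor half-site, 21.4% a metal response core and 12.4% a TATA box. Of the 31 genes with an entry, 4 held a SOX core in at least one window (*Apoe*, *Bmpr1b*, *Cldn10* and *Nfia*), 8 the half-site, 6 the metal response core and 6 the TATA box. These are counts of genes over any of their windows (*Apoe* had 3), so they cannot be set against the shares of single windows. A match describes these letters and is no evidence of binding.

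Mature astrocyte genes and radial glia genes were then compared within each library. For each library, the log2 ratio to the mean of the controls of its line was averaged over the 34 mature genes and over the 3 radial glia genes. In *Sox2* mutants MUT_1, MUT_3 and MUT_4, the mean was 0.51, 0.65 and 0.68 for mature genes and 0.27, 0.46 and 0.52 for radial glia genes. In the controls, mature genes stood at −0.06, −0.06 and 0.12 and radial glia genes at −0.15, −0.09 and 0.24, with CTRL_3 the highest for both. Radial glia genes in MUT_1 were thus close to CTRL_3, whereas mature genes in each mutant lay above every control. Mature minus radial glia was 0.23, 0.19 and 0.16 in the mutants and 0.10, 0.03 and −0.13 in the controls, so that the mutants lay above the controls by less than the range of the controls. In the *Nr2f1* line, mature genes stood at 0.18, 0.18 and 0.33 in MUT_A, MUT_B and MUT_C and at −0.09, −0.02 and 0.11 in the controls. Radial glia genes stood at 0.07, 0.08 and 0.24 in these mutants and at 0.07, 0.10 and −0.17 in the controls. The difference between mature and radial glia genes was 0.09 to 0.11 in the mutants and −0.15 to 0.28 in the controls, which overlapped. The median log2 fold change of the 34 mature genes was 0.59 in *Sox2* and 0.20 in *Nr2f1* mutants, and that of the 3 radial glia genes 0.33 and 0.15, the first of which turned to −0.092 when scaled to other astroglial genes. Over 3 genes, the second median is the value of 1 gene. In *Sox2* mutants this gene was *Vim*, while *Nes* changed by 0.30 and *Fabp7* by 0.60, close to the mature median. Some of the 34 are more widely expressed (*Slc1a3*, *Glul*, *Aldoc*, *Apoe*, *Clu*, *Cst3*, *Sparcl1* and the *Id*, nuclear factor I and metallothionein genes). Without them the mature medians were 0.59 in *Sox2* and 0.25 in *Nr2f1* mutants.

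**Figure D3:**
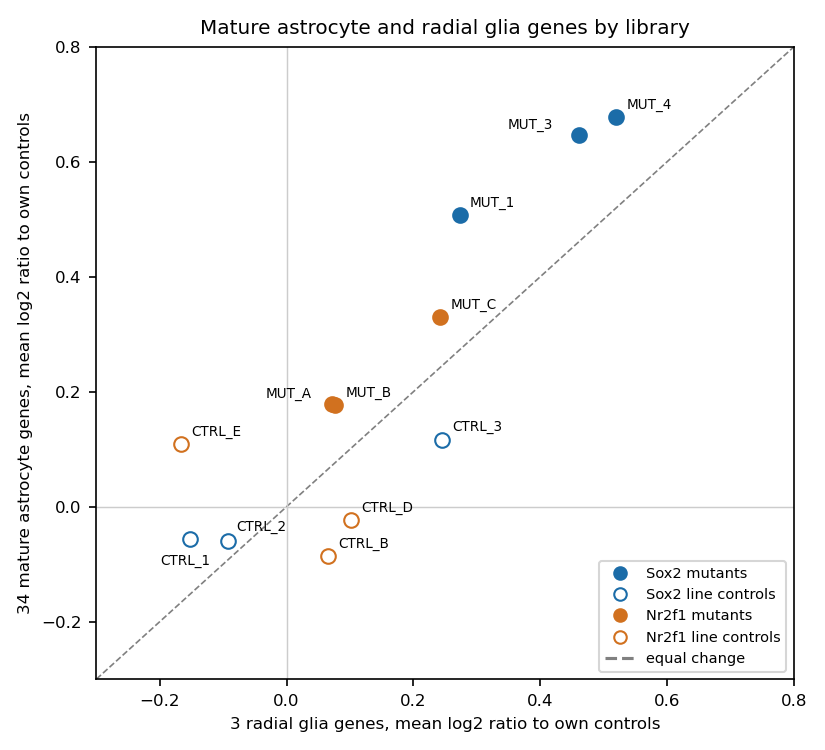
Mean log2 ratio to the controls of the same line for the 34 mature astrocyte genes (vertical) and the 3 radial glia genes (horizontal), 1 point for each of the 12 libraries, with a dashed line where both are equal. The 3 *Sox2* mutant libraries sit at 0.51 to 0.68 on the vertical axis, above every control, and the 3 *Nr2f1* mutant libraries at 0.18 to 0.33. Mutants of both lines lie above the dashed line, as do controls CTRL_1, CTRL_2 and CTRL_E. CTRL_E lies farther above it (0.28) than any *Sox2* mutant (0.16 to 0.23).

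A list of 28 other astroglial genes that holds none of the 37 was examined beside them. In *Sox2* mutants 13 of the 28 rose and 0 fell, with a median log2 fold change of 0.55. In *Nr2f1* mutants 0 of the 28 were called by edgeR (1 at FDR below 0.05). There 10 were higher and 1 lower at an unadjusted p below 0.05, where 0.042 ranked 3534 of all 15600 genes by edgeR. The median of the 28 was 0.16 in *Nr2f1* mutants. The 5 with the smallest p in *Sox2* mutants were *Ednrb*, an endothelin receptor (0.58 ± 0.07), *Pla2g7*, a secreted phospholipase (0.73 ± 0.09), *Ndrg2* (0.56 ± 0.08), the potassium channel gene *Kcnj10* (0.53 ± 0.07) and *Bcan*, which encodes the matrix protein brevican (0.62 ± 0.09).

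The 37 genes were also expressed relative to these 28, by scaling the libraries of a line so that the geometric mean of the 28 was equal. This scaling was chosen after seeing the data, and it shifted the median of all genes to −0.43 in the *Sox2* line and to −0.13 in the *Nr2f1* line. On this scale 4 genes were higher in *Sox2* mutants, namely *Agt* (1.07 ± 0.16, FDR 1.0e-06), *Gfap* (0.84 ± 0.15, FDR 3.9e-05), *Mt1* (0.61 ± 0.15, FDR 0.0010) and *Apoe* (0.58 ± 0.14, FDR 0.0014). *Id4* was lower (−0.77 ± 0.16, FDR 0.00020), and 1.31% and 36.9% of all genes were called higher and lower. The differences of *Nes*, *Vim*, *Slc1a2* and *Glul* turned to −0.12, −0.09, −0.09 and −0.11, that of *Acsbg1* to −0.033, and those of *Slc1a3* and *Slc6a11* lay within 0.01 of 0, none of them called. The median of the mature genes was 0.16 and that of the radial glia genes −0.09. Of the 22 genes called higher without this scaling, 4 were called with it. In *Nr2f1* mutants *Gjb6* was higher on this scale (1.5 ± 0.28, FDR 0.0016) and no other of the 37 was called. Of all genes in that line, 1.1% were called higher and 2.67% lower. *Gjb6* had few counts, with 4.77 and 6.5 CPM in MUT_A and MUT_C against 2.47 CPM in MUT_B. The part of the meningeal RNA in MUT_A and MUT_C was not tested.

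The difference between the lines was tested for each gene by the interaction of line and genotype. Of the 37 genes, 2 had a larger change in *Sox2* than in *Nr2f1* mutants, against 0.331% of all 15989 genes tested. By edgeR 0 had a smaller one (1 at an unadjusted p below 0.05, *Gjb6*), against 1.11% of all genes. They were *Clu* (difference of log2 fold changes 0.52 ± 0.08, FDR 0.0013) and *Apoe* (0.69 ± 0.13, FDR 0.0083). The next genes by p were *Mt1* (0.96 ± 0.20, FDR 0.020), *Agt* (1.29 ± 0.28, FDR 0.023), *Cst3* (0.41 ± 0.09, FDR 0.027) and *Nfib* (0.53 ± 0.12, FDR 0.031), which missed the threshold. For *Gfap* the difference was 0.75 ± 0.24 (FDR 0.12), for *Aqp4* 0.40 ± 0.10 (FDR 0.055) and for *Fabp7* 0.46 ± 0.15 (FDR 0.11). *Nes* (0.12 ± 0.19) and *Slc1a2* (0.08 ± 0.11) had small differences with errors of similar size. A call in *Sox2* mutants without one in *Nr2f1* mutants was therefore shown to differ for 2 of the 21 genes to which it applied. *Clu* remained called when any one library was left out. *Apoe* was not called (FDR up to 0.030) without CTRL_1, CTRL_2, MUT_1, MUT_3 or MUT_4 of the *Sox2* line, or without CTRL_D, CTRL_E, MUT_A or MUT_B of the *Nr2f1* line. The number of calls was then 1, apart from 2 without CTRL_E, and it was 5 without CTRL_3 of the *Sox2* line and 3 without CTRL_B. Leaving out the 4 libraries with much meningeal RNA kept MUT_B as the only *Nr2f1* mutant library, and the difference of *Clu* was then 0.54. On the scale of the 28 astroglial genes neither *Apoe* nor *Clu* was called.

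The lines also differed in their controls. All 3 controls of the *Nr2f1* line lay below all 3 controls of the *Sox2* line for 21 of the 37 genes, against 12% of all genes, and above them for *Glul*. *Gfap* had 0.569 times, *Sparcl1* 0.594 times and *Gjb6* 0.410 times the level in controls of the *Sox2* line, while *Mt1* (1.02) and *Atp1b2* (1.01) were nearly equal. The median ratio was 0.836 over the 37 genes and 0.993 over all genes. Line and any difference in the handling of the 2 sets of samples cannot be told apart here, so this is a description.

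Markers of other cell types were measured in the same libraries. Of 10 microglial markers, 9 rose in *Sox2* mutants, where their summed level was 304 to 359 CPM against 146 to 164 CPM in the controls, with *Cx3cr1* at 50.9 to 57.9 CPM against 23.0 to 25.9 CPM. The sums of the *Nr2f1* line were 153 to 187 CPM against 120 to 141 CPM, and 0 of the 10 were called (6 at an unadjusted p below 0.05). None of the 10 endothelial, 7 pericyte and 9 meningeal markers was called in either line by edgeR. At an unadjusted p below 0.05, 7, 5 and 5 of them were higher in *Sox2* mutants and 10, 3 and 7 in *Nr2f1* mutants. Unadjusted p-values this low were frequent among all genes tested. By edgeR, 0.029 ranked 4522 of 15602 in the *Sox2* line and 0.042 ranked 3534 of 15600 in the *Nr2f1* line. Endothelial sums were 509 to 651 CPM in *Sox2* mutants against 364 to 558 CPM in the controls. Of 11 tested markers of the oligodendrocyte lineage, 1 rose and 1 fell in each line. They were *Mbp*, a myelin protein gene (0.80 ± 0.16 in *Sox2* and 0.87 ± 0.07 in *Nr2f1* mutants), and *Mag*, another myelin gene (−0.74 ± 0.14 and −1.03 ± 0.13). Of 10 markers of thalamic glutamatergic neurons, 5 fell and 1 rose in *Sox2* mutants, with sums of 2228 to 2308 CPM against 2520 to 3161 CPM. In *Nr2f1* mutants 2 fell and 1 rose, and the sums were 2876 to 3286 CPM against 3005 to 3216 CPM. Of 8 markers of dividing cells 0 were called in either line by edgeR (6 and 0 higher at an unadjusted p below 0.05), with sums of 303 to 346 CPM in *Sox2* mutants against 223 to 285 CPM in the controls. The 8 markers of GABAergic neurons, which lie in neighbouring nuclei as well as in the dLGN, summed to 162 to 234 CPM in *Sox2* mutants against 87.6 to 140 CPM in the controls. The part of these shifts in the astroglial differences was not tested. Markers of hippocampus and other pallial tissue summed to 186 CPM in MUT_1 of the *Sox2* line and to 49.9 to 119 CPM in its other libraries. Without MUT_1 the number of called genes stayed at 22.

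**Figure D4:**
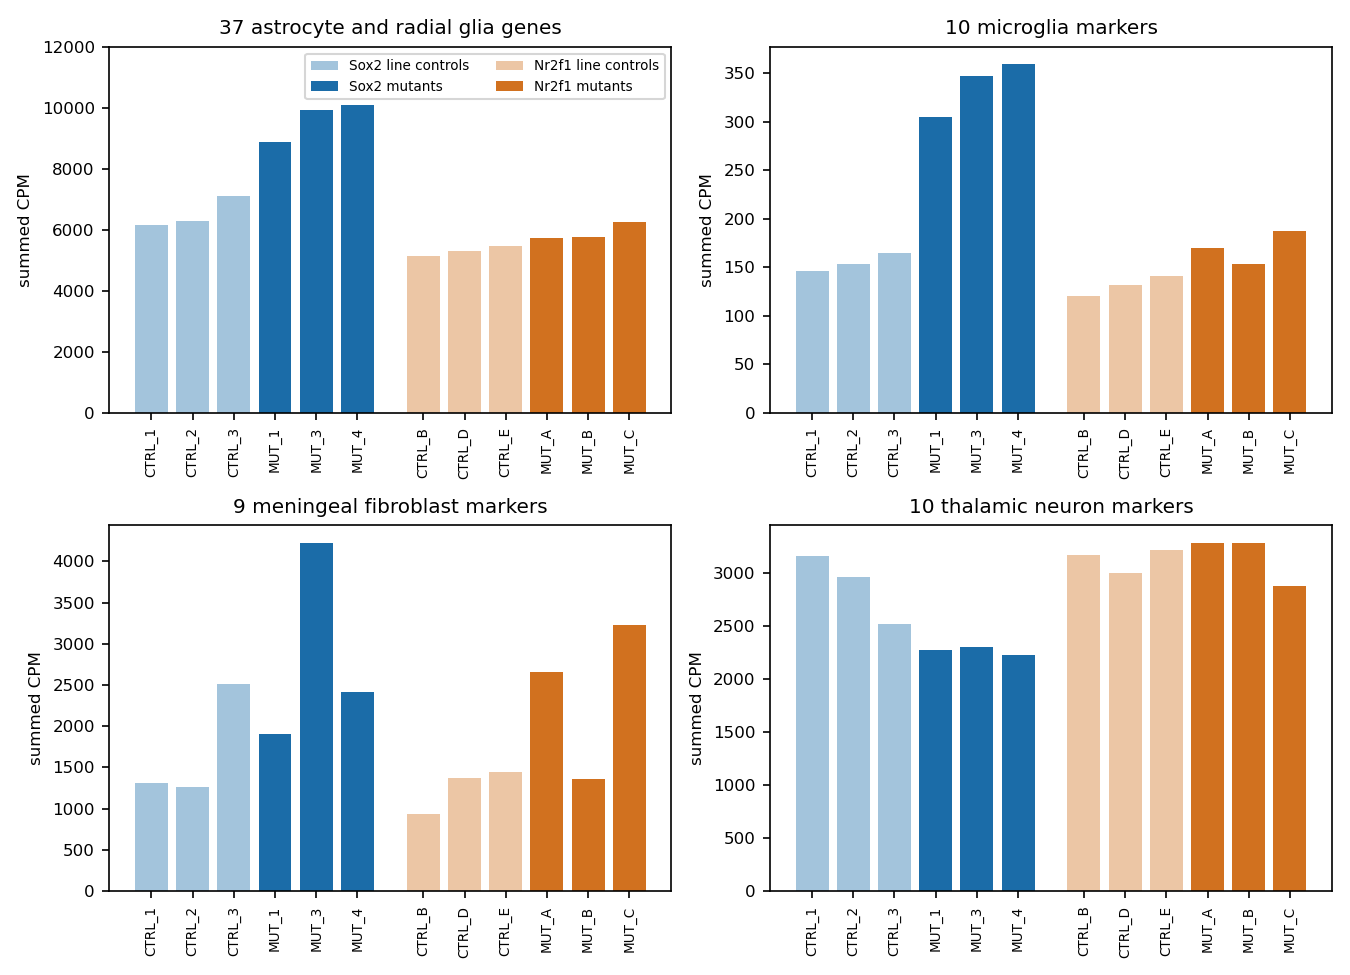
Summed CPM of the 37 genes and of marker genes of microglia, meningeal fibroblasts and thalamic neurons in each library (pale bars, controls; dark bars, mutants; blue, *Sox2* line; orange, *Nr2f1* line). The 37 genes sum to 8873 to 10089 CPM in *Sox2* mutants against 6169 to 7102 CPM in their controls, and to 5730 to 6250 CPM against 5140 to 5454 CPM in the *Nr2f1* line.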

How the data were processed

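RNA-seq of P0 dLGN was analysed in 12 libraries (4 groups of 3). The authors aligned paired reads with STAR to mouse RefSeq transcripts and deposited RSEM expected counts per gene in a table for each line. The submitters' notes name mm10. Versions of STAR and RSEM and the use of strand were not given in the sources used here, and 14 of the 37 genes overlap another annotated gene. No table column names a single deposited sample, so columns were assigned to groups only, and 0 columns of per-sample values were left out.

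Expected counts were rounded (7.77% of values were not whole). In R 4.3.3, genes were filtered with filterByExpr of edgeR 4.0.16 (minimum count 10, minimum total 15), scaled by TMM and tested by the quasi-likelihood test with Benjamini-Hochberg adjustment (FDR below 0.01), each line separately. A model of all 12 libraries gave the interaction. CPM use TMM library sizes. DESeq2 1.42.0, other filters, scalings and tests, and leaving out each library were alternatives. An exact permutation test of 3 against 3 cannot go below 0.1. The script was tested on simulated data. Values per library were to be given for genes called in either line or in the interaction, the 3 radial glia genes and 8 defining astrocyte genes, with up to 5 called genes of the other astroglial list. Those of the remaining genes, and the genes named from other lists, were added after their values were seen. The 37 genes and the lists were chosen with earlier results of these data known. Lengths come from GENCODE vM21 and upstream sequences from RefSeq (GRCm38.p6).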

Additional observations from a re-analysis of the deposited data

Results flagged for a closer look

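The change of *Apoe* differed between the lines by the interaction test. *Apoe* was 2.00 times its control mean in *Sox2* mutants and 1.24 times in *Nr2f1* mutants, and the difference of log2 fold changes was 0.69 ± 0.13 (FDR 0.0083), with all mutants above all controls in both lines. *Clu* was 1.48 times its control mean in *Sox2* mutants and 1.03 times in *Nr2f1* mutants, and the difference was 0.52 ± 0.08 (FDR 0.0013), with no overlap between groups in the *Sox2* line and overlap in the *Nr2f1* line.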

How the results depend on the processing

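In *Sox2* mutants, other filters, library scalings and tests gave 22 to 29 higher genes, and FDR below 0.05 gave 32. Scaling to the 28 astroglial genes, chosen after seeing the data, gave 4 higher and 1 lower (*Id4*), with medians of 0.16 (mature) and −0.092 (radial glia) in *Sox2* and 0.0425 and 0.0022 in *Nr2f1* mutants. It turned *Nes* (−0.12), *Vim* (−0.092), *Slc1a2* (−0.090), *Slc1a3* (−0.0079), *Glul* (−0.11), *Acsbg1* (−0.033) and *Slc6a11* (−9e-04) in *Sox2* mutants, and *Aldh1l1* (−0.036), *Slc1a3* (−0.078), *Clu* (−0.10), *Vim* (−0.10), *Cst3* (−0.10), *Mlc1* (−0.087), *Id3* (−0.079), *Aldoc* (−0.14), *Acsbg1* (−0.11) and *Mt1* (−0.061) in *Nr2f1* mutants, with no call. Leaving out the libraries with much meningeal RNA, also chosen after seeing the data, gave 32 higher and 1 lower gene in *Sox2* mutants. In the *Nr2f1* line it left MUT_B as the only mutant library, with a radial glia median of 0.039 and *Vim* at −0.059. With 1 library left out, *Vim* ranged from −0.045 (without MUT_C) to 0.098 and *Glul* from −0.14 to 0.0082 (without MUT_B).

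In *Nr2f1* mutants, higher genes numbered 2 with no filter, 7 by DESeq2, 6 by the likelihood ratio test, 6 by the exact test, 2 in one fit of both lines and 6 at FDR below 0.05. Lower genes numbered 1 by DESeq2, by the likelihood ratio test, by the exact test and at FDR below 0.05. Genes that differed between lines numbered 8 by DESeq2, 6 by the likelihood ratio test, 6 at FDR below 0.05 and 0 with the astroglial scaling. With each library left out in turn, *Sox2* mutants had 10 to 30 higher and 0 to 1 lower genes, *Nr2f1* mutants 0 to 3 higher and 0 to 1 lower with a radial glia median of 0.042 to 0.18, and 1 to 5 genes differed between lines. The causes were not tested.

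The *Sox2* line shares numbers 1 and 3 between genotypes (correlation of deviations 0.217 and 0.206), which nothing ties to a litter or day. With the replicate block, 26 genes were higher, with medians of 0.52 (mature) and 0.25 (radial glia). CTRL_2 and MUT_4 had no partner in this fit, so its differences came from numbers 1 and 3 alone. No such fit was possible in the *Nr2f1* line, where 1 letter is shared. Depth limits *Cldn10*, *Gjb6*, *S100b* and *Ntsr2* most.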
